A study of Mus musculus with 8 samples.

Results

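Hox genes encode the homeodomain transcription factors of the A, B, C and D clusters, and they were taken as every gene whose symbol is Hox followed by a cluster letter and a paralog number. The table of 37979 genes held 40 such rows with 39 symbols, because Hoxa3 is listed under 2 overlapping gene identifiers. Bulk RNAseq had been performed on pericytes and smooth muscle cells (SMCs) of the hindlimb muscles, taken from Ai14+/-;SM22α-Cre+ mice of both sexes at 3 to 4 months of age, with 4 libraries per group. The SM22α promoter drives Cre in these mice, which turns on the tdTomato reporter for good, and sorting gated PDGFRβ+tdTomato- cells as pericytes and PDGFRβ+tdTomato+ cells as SMCs, both without CD31 or CD45 staining and with low DAPI. A PDGFRβ+ cell of another type that had ever expressed SM22α would fall into the SMC gate. Each library was made from about 60000 cells pooled over multiple sorts, and all 8 libraries carry the same batch label. The study calls them biological replicates, and p values measure the spread between these pools.

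Hox genes lie in order along their chromosomes, and paralogs with low numbers act towards the head and those with high numbers towards the tail and the tip of the limb. In the embryonic limb, genes of paralog groups 9 and 10 act in its upper segment, those of group 11 in the middle segment and those of group 13 in the hand or foot. Connective tissue cells of the adult keep part of this positional expression, whereas Hox genes also act in blood cell precursors. A Hox protein binds DNA through its homeodomain, often together with TALE cofactors of the Pbx, Meis and Pknox families.

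The 4 Hox genes with the highest mean level over all libraries were Hoxa7, Hoxa9, Hoxa10 and Hoxc10. The homeoboxes of Hoxa10 and Hoxc10 are printed because these genes had the largest differences on the log2(FPKM + 1) scale and because the closeness of their sequences bears on whether reads can be told apart. Both sequences are from the mouse genome (NCBI Build 37) and lie within an exon, with Hoxa10 at chr6:52182553-52182732 on the minus strand and Hoxc10 at chr15:102801279-102801458 on the plus strand. Capitals mark codons 48 to 53 of the homeobox, within the helix that reads DNA.
Hoxa10: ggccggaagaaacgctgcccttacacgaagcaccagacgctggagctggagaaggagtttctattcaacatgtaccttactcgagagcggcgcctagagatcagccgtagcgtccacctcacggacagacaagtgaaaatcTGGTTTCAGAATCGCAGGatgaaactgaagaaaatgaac
Hoxc10: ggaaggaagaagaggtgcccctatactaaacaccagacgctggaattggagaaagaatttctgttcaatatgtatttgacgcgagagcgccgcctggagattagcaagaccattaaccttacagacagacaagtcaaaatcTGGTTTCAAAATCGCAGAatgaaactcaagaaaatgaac
Over 180 bases, Hoxa10 and Hoxc10, which share a paralog number, were 80.6% identical. Hoxa10 was 77.2% identical to Hoxa9, its neighbour in the cluster, and 64.4% identical to Hoxa7. Among all homeoboxes found, pairs with the same paralog number had a median identity of 80.6% (range 67.2 to 93.9%, 42 pairs), and pairs with different numbers had a median of 60.6% (range 46.1 to 88.9%, 699 pairs). The longest identical run between Hox genes with separate exons was 52 bases, shorter than the 150-base reads.

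The values are FPKM, which are fragments scaled to the length of the transcript and to the size of the library, so levels can be compared between genes per length. Low values came in steps of single fragments, each worth 0.037 to 0.0475 FPKM for a transcript with an effective length of 1 kilobase, and between 12713 and 13194 genes reached 1 FPKM in a library. Hox genes were low, with group means of at most 14.3 FPKM. The log2(FPKM + 1) values, which shrink fold changes at low levels, were tested in limma with Benjamini-Hochberg adjustment (q value) over 27414 genes. All log2 differences are pericytes minus SMCs, so negative values are higher in SMCs.

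Markers of several other cell types moved with the labels. Of all genes tested, 11.2% were higher in SMCs and 10.6% in pericytes (q below 0.05), and the marker counts are to be read beside these shares. All 6 T cell markers and all 6 B cell markers were higher in the pericyte libraries, with summed levels of 1496 to 2356 FPKM against 19.1 to 33.1 FPKM in SMCs for T cells and of 798 to 2016 FPKM against 9.21 to 31.9 FPKM for B cells. Of 8 fibro-adipogenic and fibroblast markers, 7 were higher in SMCs, with summed levels of 600.2 to 844 FPKM in pericytes and 4383 to 5920 FPKM in SMCs. Tendon markers (4 of 5 higher in SMCs, 196 to 646 FPKM against 2456 to 3759 FPKM) and endothelial markers (6 of 8, 95.1 to 155 FPKM against 362 to 1138 FPKM) went the same way. Of 8 pericyte markers, 0 were higher in the pericyte libraries and 1, Rgs5, was higher in SMCs, which is near the shares of all genes. These markers thus did not single out the pericyte libraries. The pericyte markers summed to 43.4 to 111 FPKM in pericytes and 87.0 to 372 FPKM in SMCs. The smooth muscle markers (0 of 8 called) summed to 569 to 1896 FPKM and 1769 to 5630 FPKM. Satellite cell, muscle fibre and Schwann cell markers had 0 of 6 called in each list, and 2 of 6 myeloid markers were higher in SMCs. Satellite cell markers summed to 20.8 to 173 FPKM in pericytes and 197 to 542 FPKM in SMCs, and muscle fibre markers to 18.1 to 26.8 FPKM and 26.8 to 38.6 FPKM. Schwann cell markers (292 to 1334 FPKM and 668 to 966 FPKM) and myeloid markers (769 to 1752 FPKM and 903 to 1498 FPKM) overlapped between the groups. No marker was at 0 in a whole group. The part of cell composition in the Hox differences was not tested, and in bulk RNA fewer cells of a type and less RNA per cell cannot be told apart.

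Hox genes were higher in SMCs across all 4 clusters. Of 39 Hox genes tested, 16 were higher in SMCs (q below 0.05), against 11.2% of all genes tested and 21.8% called in either direction. None was higher in pericytes (0 of 39, against 10.6% of all genes), and of the 24 Hox genes with an unadjusted p below 0.05 by limma, 0 were higher in pericytes. The median log2 difference over the Hox genes was -0.45, and over all genes it was 0.02. On average 33 Hox genes were higher in SMCs and 6 in pericytes, where 44.7% of all genes were higher in SMCs. In 18 Hox genes all SMC values exceeded all pericyte values, which held for 12.5% of all genes, and the reverse held for 1 Hox gene, Hoxb3, and for 12.1% of all genes. Hoxa10 alone had a log2 difference beyond 2 with q below 0.05, the rule of the study for enriched genes, which 2.66% of all genes passed in the SMC direction and 3.24% in the pericyte direction. With a pseudocount of 0.1 in place of 1, 13 Hox genes passed that rule. All 16 Hox genes called had the same direction in replicates 1 and 2 as in replicates 3 and 4. This is nearly given, since the calls used these same libraries. Of the 16, 13 were called with any single library left out. Hoxa9, Hoxc4 and Hoxc8 were the exceptions.

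**Figure D1:**
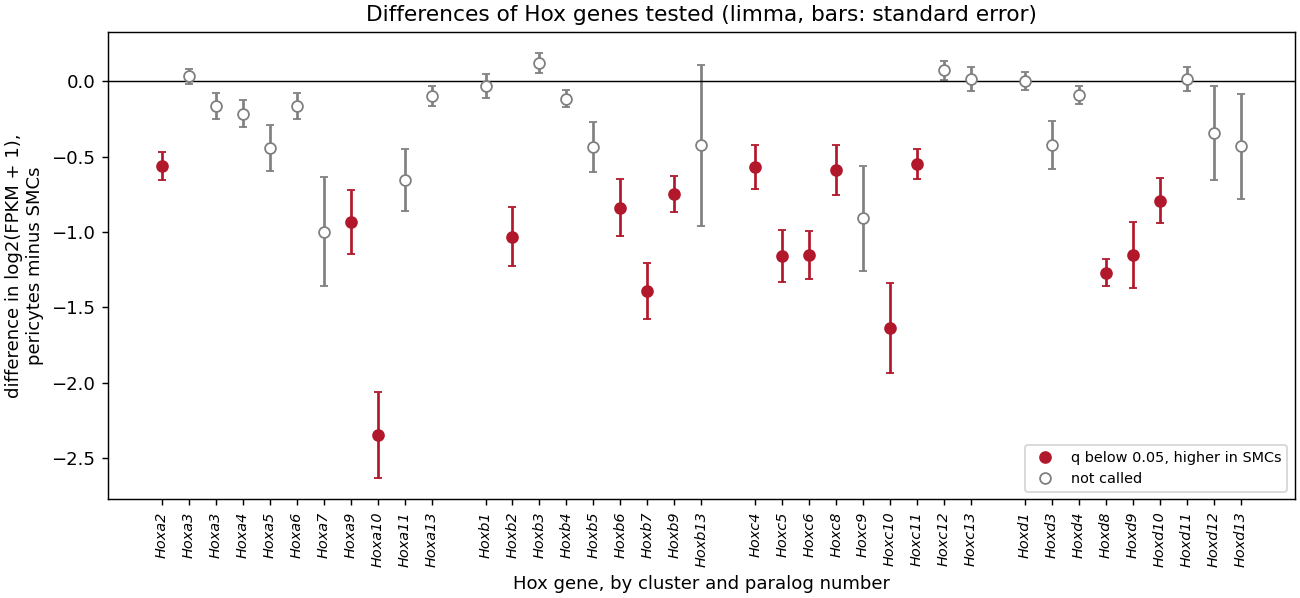
Log2 differences (pericytes minus SMCs) of the Hox genes tested, 1 of which is not drawn, ordered by cluster and paralog number, with standard errors as bars. Filled points mark the 16 genes with q below 0.05, all below 0, and Hoxa10 lies lowest at -2.35.

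Summed over all Hox genes, libraries held 13.3, 24.7, 14.8 and 17.7 FPKM in pericyte replicates 1 to 4 and 64.9, 54.8, 84.1 and 62.2 FPKM in SMC replicates 1 to 4. The groups did not overlap. Pericyte replicate 2 also had the highest total over all genes, 1190440 FPKM against 656405 to 782014 FPKM in the other libraries. Pericyte libraries had 2 to 5 Hox genes at 1 FPKM or more and SMC libraries had 13 to 20, with the most in SMC replicate 3. Hoxa7, Hoxa9, Hoxa10 and Hoxc10 together held 56.0 to 65.7% of the Hox sum in pericytes and 54.7 to 58.7% in SMCs.

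The A cluster (chr6:52105366-52210874) was the most abundant in every library, with 7.36 to 12.9 FPKM in pericytes and 29.5 to 40.7 FPKM in SMCs, and it had 3 of 12 genes called. All calls in the 4 clusters were higher in SMCs, the direction called in 11.2% of all genes. The C cluster (chr15:102751534-102867274), with 6 of 9 called, held 2.07 to 7.88 FPKM in pericytes and 13.9 to 18.4 FPKM in SMCs. The B cluster (chr11:96055630-96229570), with 4 of 9 tested called, held 0.972 to 2.00 FPKM and 5.09 to 13.3 FPKM. The groups did not overlap in any cluster. In the D cluster (chr2:74506367-74603200), 3 of 9 genes were called, and the sums were 0.917 to 2.25 FPKM and 5.84 to 12.2 FPKM. As a share of the Hox sum, the A cluster took 52.1 to 67.2% in pericytes and 48.4 to 53.8% in SMCs, so the ranges overlapped.

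**Figure D2:**
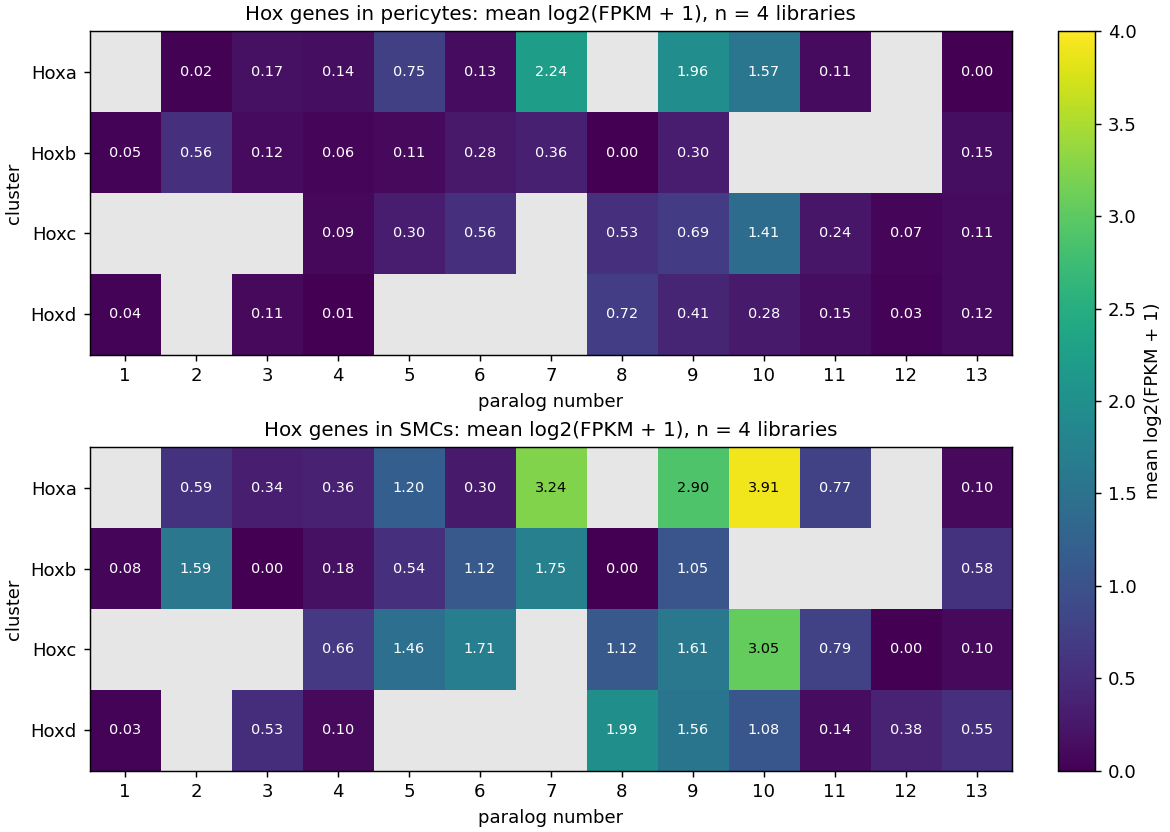
Mean log2(FPKM + 1) of each Hox gene in pericytes (top) and SMCs (bottom), 4 libraries each, with clusters as rows and paralog numbers as columns; grey cells hold no gene or a gene that is not drawn, and of the 2 Hoxa3 rows the higher is drawn. The brightest cells are Hoxa7 in pericytes and Hoxa10 in SMCs.

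Paralog groups 9 and 10, which act in the upper segment of the embryonic limb, had 6 of 7 genes called, all higher in SMCs, against 11.2% of all genes. Calls were not confined to these groups. Groups 2 and 8 each had 2 of 2 genes tested called and group 6 had 2 of 3. Hoxa10 showed the largest difference of all Hox genes. It had 2.28, 3.48, 0.835 and 1.86 FPKM in pericyte replicates 1 to 4 and 17.8, 14.4, 14.9 and 10.2 FPKM in SMC replicates 1 to 4, so the groups were far apart. The mean was 6.78-fold higher in SMCs (14.3 ± 3.12 against 2.11 ± 1.09 FPKM, SD, n = 4; log2 difference -2.35, SE 0.29, limma q = 0.00123). Hoxc10, a gene of the hindlimb rather than the forelimb bud, had 2.13, 3.24, 0.723 and 1.20 FPKM in pericytes and 6.51, 5.92, 10.4 and 6.99 FPKM in SMCs. Every SMC value was above every pericyte value, with a 4.09-fold higher mean (log2 difference -1.64, SE 0.30, limma q = 0.00759). For Hoxd10, which acts in lumbar motor neurons and the hindlimb, pericytes had 0.121, 0.405, 0.399 and 0 FPKM and SMCs had 0.873, 1.10, 1.57 and 0.963 FPKM. This was again without overlap (log2 difference -0.79, SE 0.15, limma q = 0.00877). The group 10 genes held 13.2 to 34.0% of the Hox sum in pericytes and 29.2 to 39.1% in SMCs.

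Within group 9, whose genes act early in the limb bud, the pericyte libraries held 1.82, 4.81, 2.73 and 2.75 FPKM of Hoxa9, which also acts in blood cell precursors, and the SMC libraries held 7.46, 5.98, 6.68 and 5.77 FPKM. The gap was narrow, between 4.81 FPKM in pericyte replicate 2 and 5.77 FPKM in SMC replicate 4. The mean was 2.14-fold higher in SMCs (log2 difference -0.94, SE 0.21, limma q = 0.0184). This call was lost without pericyte replicate 3 (limma q = 0.0505), SMC replicate 1 (q = 0.0501) or SMC replicate 3 (q = 0.0501). Hoxb9 had 0.107, 0.259, 0.343 and 0.241 FPKM in pericytes and 0.955, 0.731, 1.41 and 1.26 FPKM in SMCs, a clear separation (4.58-fold, log2 difference -0.75, SE 0.12, limma q = 0.00419). In Hoxd9 the values were 0.0215, 0.647, 0.248 and 0.476 FPKM in pericytes and 2.45, 1.23, 2.87 and 1.55 FPKM in SMCs, also apart (5.82-fold, log2 difference -1.15, SE 0.22, limma q = 0.00929). Hoxc9 was the exception, since pericyte replicate 2 reached the SMC range. It had 0.351, 1.98, 0.188 and 0.433 FPKM in pericytes and 3.80, 2.11, 1.34 and 1.45 FPKM in SMCs, and it was not called (log2 difference -0.91, SE 0.35, limma q = 0.119). Without pericyte replicate 2 it was called (log2 difference -1.20, limma q = 0.0189).

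**Figure D3:**
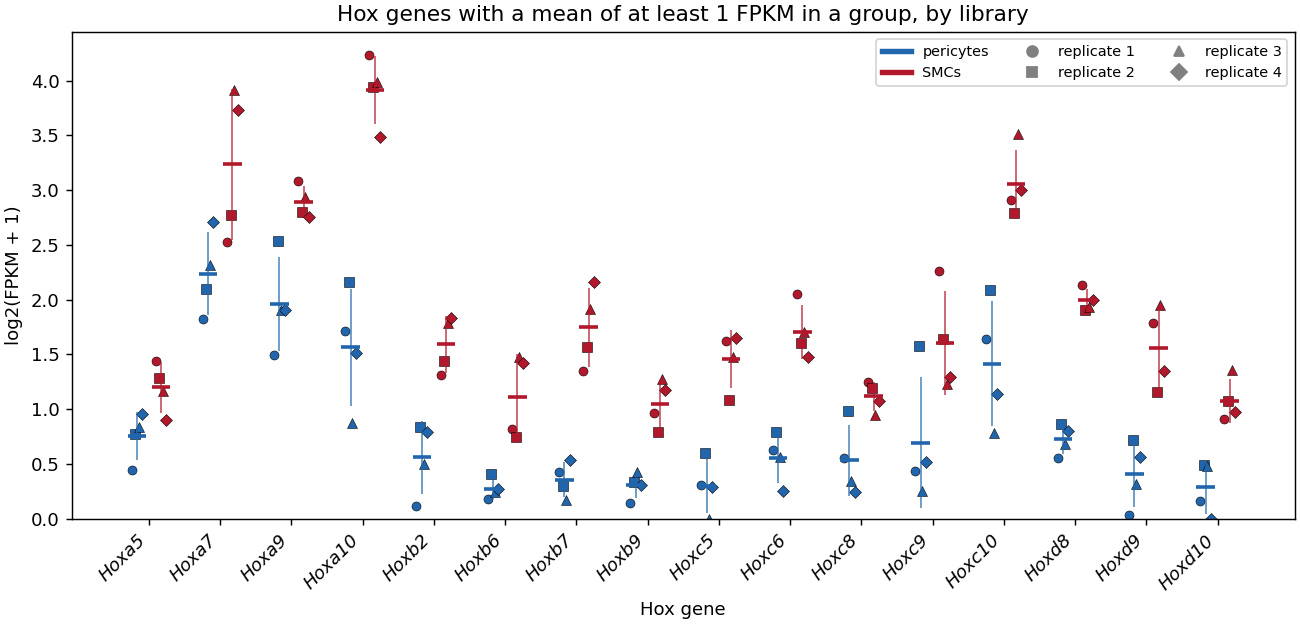
Log2(FPKM + 1) of the 16 Hox genes whose mean reached 1 FPKM in a group, 1 point per library, with the group mean as a line and SD as a bar. In 12 genes, Hoxa10 among them, the SMC points lie above the pericyte points without overlap, and in Hoxa5, Hoxa7, Hoxc8 and Hoxc9 the groups overlap. Most of the 16 reached 1 FPKM only in SMCs, so the choice of genes favours a higher SMC mean.

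Groups 7 and 8 belong to the trunk levels in front of these. Hoxa7, which is also active in blood cell precursors, had the highest mean of the Hox genes in pericytes. In pericyte replicate 2, Hoxa9 and Hoxa10 were higher. Hoxa7 had 2.53, 3.27, 3.99 and 5.56 FPKM in pericytes and 4.76, 5.84, 14.1 and 12.3 FPKM in SMCs. Replicates 3 and 4 were higher than replicates 1 and 2 in both groups, and pericyte replicate 4 lay above SMC replicate 1. The difference did not pass (2.41-fold, log2 difference -0.999, SE 0.36, limma q = 0.0978), but it did without SMC replicate 1 (limma q = 0.04998) and with replicates 1 and 2 against 3 and 4 as a covariate (limma q = 0.00636). For Hoxb7 there were 0.346, 0.232, 0.122 and 0.448 FPKM in pericytes and 1.55, 1.97, 2.77 and 3.48 FPKM in SMCs. The 8.50-fold higher SMC mean was the largest fold among Hox genes with at least 1 FPKM in a group (log2 difference -1.39, SE 0.18, limma q = 0.00183). Hoxb7 shares 26.2% of its exon bases with Hoxb8 on the same strand, and Hoxb8 was listed at 0 in all 8 libraries. An exact 0 at overlapping genes such as Hoxb8 and Hoxb3 may be a failed estimate, which was not tested.

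Hoxd8 had the smallest standard error of the Hox genes called. Its levels were 0.469, 0.820, 0.602 and 0.737 FPKM in pericytes and 3.39, 2.75, 2.83 and 2.99 FPKM in SMCs. It had the lowest q value of all Hox genes (4.55-fold, log2 difference -1.27, SE 0.09, limma q = 1.1e-04). Hoxc8, which patterns thoracic vertebrae and brachial motor neurons, had 0.465, 0.972, 0.273 and 0.187 FPKM in pericytes and 1.38, 1.29, 0.928 and 1.11 FPKM in SMCs. Pericyte replicate 2 lay above SMC replicate 3, and the call was close to the threshold (log2 difference -0.59, SE 0.17, limma q = 0.0436; two-sided exact permutation p = 0.0571). It was lost without any single library other than pericyte replicate 2, with limma q values of 0.0618 to 0.110.

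Of the more anterior groups, 5 genes of groups 2, 5 and 6 reached 1 FPKM on average in a group. All 5 reached it in SMCs alone, so their higher SMC means follow from this choice of genes. Hoxc6, a thoracic gene, had 0.542, 0.731, 0.475 and 0.189 FPKM in pericytes and 3.15, 2.03, 2.26 and 1.78 FPKM in SMCs. Hoxc5, its neighbour, had 0.235, 0.519, 0 and 0.219 FPKM in pericytes and 2.08, 1.12, 1.79 and 2.14 FPKM in SMCs. The groups were separate in both genes, with log2 differences of -1.15 (SE 0.16, limma q = 0.00221, 4.76-fold) for Hoxc6 and -1.16 (SE 0.17, limma q = 0.00283, 7.33-fold) for Hoxc5. Hoxb6 had 0.129, 0.325, 0.187 and 0.209 FPKM in pericytes and 0.762, 0.674, 1.79 and 1.68 FPKM in SMCs. Its SMC levels were higher in replicates 3 and 4, and all lay above the pericyte levels (log2 difference -0.84, SE 0.19, limma q = 0.0176).

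Hoxb2, a hindbrain gene in the embryo, had 0.0813, 0.787, 0.417 and 0.726 FPKM in pericytes and 1.48, 1.70, 2.46 and 2.57 FPKM in SMCs. The groups were apart (4.08-fold, log2 difference -1.03, SE 0.20, limma q = 0.00916), but 49.4% of its exon bases are shared with Hoxb3os on the opposite strand. Hoxa5, which acts in the lung and the neck region, had 0.357, 0.713, 0.786 and 0.943 FPKM in pericytes and 1.72, 1.44, 1.24 and 0.865 FPKM in SMCs. Here SMC replicate 4 lay below pericyte replicate 4, and the difference did not pass (log2 difference -0.45, SE 0.15, limma q = 0.0826). Without SMC replicate 4 it passed (limma q = 0.0459).

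The other 24 Hox genes stayed below 1 FPKM on average in both groups, with group means from 0 to 0.961 FPKM. Of these, 23 were tested and 3 were called, all higher in SMCs, a share near the 11.2% of all genes. Hoxa2, a gene of the second pharyngeal arch, was listed at 0 in 3 pericyte libraries and at 0.0705 FPKM in pericyte replicate 4, and it had 0.557, 0.278, 0.692 and 0.524 FPKM in SMCs (log2 difference -0.57, SE 0.09, limma q = 0.00452). Those SMC levels correspond to an estimated 16.2 to 37.2 fragments. Hoxc11, of the limb's middle segment, had 0.130 to 0.236 FPKM in pericytes and 0.536 to 1.05 FPKM in SMCs (log2 difference -0.55, SE 0.10, limma q = 0.00765). Hoxc4 had 0 to 0.139 FPKM in pericytes and 0.181 to 0.850 FPKM in SMCs (log2 difference -0.57, SE 0.14, limma q = 0.0288). The Hoxc4 call was lost in 6 of the 8 fits without a single library (limma q 0.0544 to 0.0768) and stayed without pericyte replicate 2 or SMC replicate 3.

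Among the 6 Hox genes with a higher mean in pericytes, 0 were called. Hoxb3 was listed at 0 in all 4 SMC libraries and at 0.103, 0.0283, 0.197 and 0.0234 FPKM in pericytes (limma q = 0.285), and it shares 37.9% of its exon bases with Hoxb3os, so the limit on exact zeros given for Hoxb8 holds here too. Hoxc12 and the larger of the Hoxa3 loci were also listed at 0 in all SMC libraries. Hoxc13, Hoxd1 and Hoxd11 differed by at most 0.02 on the log2 scale. Hoxa13 was listed at 0 in all pericyte libraries and had 0.0740, 0.0353, 0.185 and 0 FPKM in SMCs (limma q = 0.379).

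Some of the most posterior Hox genes were measured mainly in replicate 3. Hoxb13, which acts at the tail end of the body and in the prostate, was listed at 0 in pericyte replicates 1, 2 and 4 and at 0.531 FPKM in pericyte replicate 3. In SMCs it was listed at 0 in replicates 1 and 2, at 3.81 FPKM in replicate 3 and at 0.0388 FPKM in replicate 4. By the size of a single fragment, these amounts are about 25.8 fragments in pericyte replicate 3 and 184 in SMC replicate 3. Both replicate 3 libraries thus held Hoxb13 well above the others of their group. Hoxd12, a gene of the distal limb, had 0, 0, 0.101 and 0 FPKM in pericytes and 0.0170, 0.0797, 1.60 and 0 FPKM in SMCs. Hoxd13, which acts in the hand and foot and in the genital region, had 0, 0, 0.232 and 0.120 FPKM in pericytes and 0.217, 0.0338, 2.15 and 0.153 FPKM in SMCs. Hoxa11 in SMCs was also highest in replicate 3, with 0.721, 0.327, 1.50 and 0.472 FPKM against 0, 0, 0.303 and 0.0415 FPKM in pericytes. Hoxb13 (limma q = 0.663), Hoxd12 (limma q = 0.550) and Hoxd13 (limma q = 0.491) were not called. Every SMC level of Hoxa11 lay above its pericyte levels, and it missed the threshold (limma q = 0.0614) but was called in 7 of 17 alternatives, among them without SMC replicate 2 (limma q = 0.0451). Hoxc13 did not follow, and it was listed at 0 in both replicate 3 libraries. Without both replicate 3 libraries, an alternative chosen after seeing the data, 12 Hox genes were higher in SMCs, 0 were higher in pericytes and 6.91% of all genes were higher in SMCs. Of the 12, 11 were among the 16 and the other was Hoxa11 (limma q = 0.0357), and Hoxa9 (limma q = 0.114), Hoxb2 (limma q = 0.0744), Hoxb6 (limma q = 0.0921), Hoxc8 (limma q = 0.140) and Hoxd9 (limma q = 0.0635) were no longer called.

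Genes that set limb type and pattern were compared next. Of 10 genes on this list, 2 were higher in SMCs and 0 in pericytes, where 11.2% and 10.6% of all genes were, with a median log2 difference of -0.30. Pitx1, which specifies the hindlimb, had 0.188, 0.253, 0.708 and 0.122 FPKM in pericytes and 1.76, 1.65, 7.83 and 1.04 FPKM in SMCs. The groups were separate but SMC replicate 3 was far higher, and the difference did not pass (log2 difference -1.38, SE 0.45, limma q = 0.0700). Without SMC replicate 3 it passed (log2 difference -0.92, limma q = 0.0188). Isl1, which starts hindlimb outgrowth, showed the same excess in replicate 3, with 0.219, 0.237, 0.814 and 0.0407 FPKM in pericytes and 1.36, 1.85, 15.3 and 1.06 FPKM in SMCs (limma q = 0.148). Tbx4, the T-box gene of the hindlimb, overlapped between the groups, with 0.397 to 1.61 FPKM in pericytes and 0.467 to 1.53 FPKM in SMCs (log2 difference -0.13, SE 0.25, limma q = 0.782). The Tbx4 difference turned to 0.011 without pericyte replicate 3. Tbx5, its forelimb counterpart, was at 0 to 0.0626 FPKM in pericytes and 0.0511 to 0.707 FPKM in SMCs (log2 difference -0.43, SE 0.16, limma q = 0.111). The 2 genes called were Shox2, which acts in the upper limb segment (0.234 to 1.19 FPKM in pericytes, 2.71 to 6.15 FPKM in SMCs, log2 difference -1.67, SE 0.25, limma q = 0.00329), and Gli3, a Hedgehog pathway factor (log2 difference -0.50, SE 0.08, limma q = 0.00444).

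**Figure D4:**
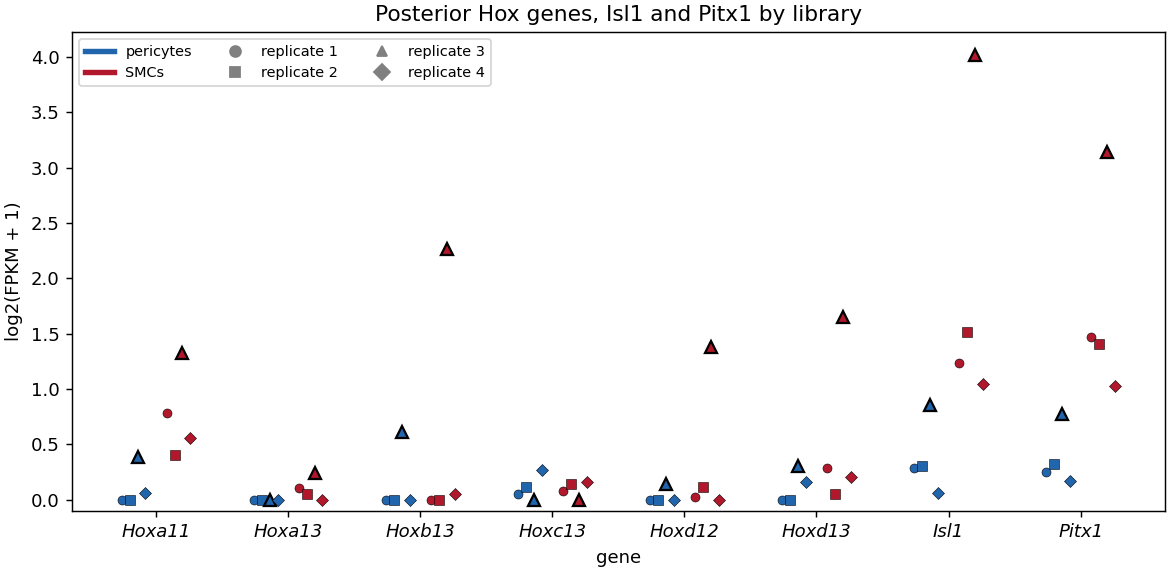
Log2(FPKM + 1) of posterior Hox genes and of Isl1 and Pitx1 in each library, with replicates as symbols and replicate 3 outlined. The SMC replicate 3 triangle is the highest point for 7 of the 8 genes drawn, and Hoxc13 is listed at 0 in both replicate 3 libraries.

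Hoxa10 and Hoxa9 lie next to each other, and their ratio within a library does not depend on the library's scale. The ratio of Hoxa10 to Hoxa9 was 1.26, 0.723, 0.305 and 0.674 in pericyte replicates 1 to 4 and 2.38, 2.41, 2.23 and 1.77 in SMC replicates 1 to 4. All SMC libraries were higher (log2 difference -1.73, two-sided exact permutation p = 0.0286, the smallest p this design allows). After adjustment over the 2 ratios computed, which were both chosen after their values were seen, the exact p was 0.0571 and did not pass. The ratio of Hoxa10 to Hoxa7 was 0.903, 1.06, 0.209 and 0.334 in pericytes and 3.74, 2.47, 1.06 and 0.831 in SMCs. These groups overlapped (log2 difference -1.73, exact permutation p = 0.143).

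**Figure D5:**
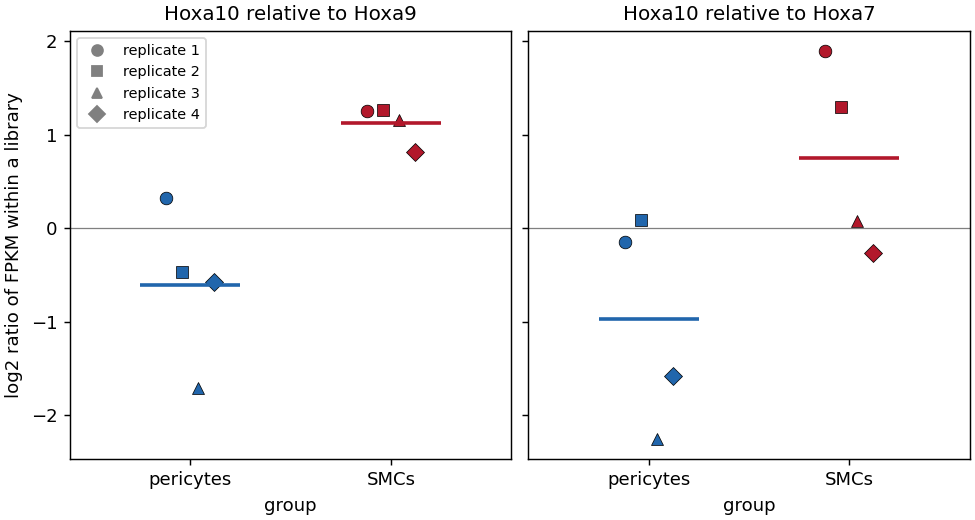
Log2 ratio of Hoxa10 to Hoxa9 (left) and to Hoxa7 (right) within each library, with the group mean as a line. The Hoxa10 to Hoxa9 ratio is higher in all 4 SMC libraries than in any pericyte library, and the Hoxa10 to Hoxa7 ratio overlaps.

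Genes inside the clusters that are not Hox genes, most of them non-coding, were set beside the genes that flank the clusters. Of 28 such genes, 19 were tested, 5 were higher in SMCs and 0 in pericytes (median log2 difference -0.15), against 11.2% and 10.6% of all genes. The miRNA genes found there, Mir196a-1, Mir196a-2, Mir196b, Mir10a, Mir10b and Mir615, are 68 to 110 bases long, shorter than the 240 to 270 bases taken off transcript length on the fragment scale, and were listed at 0 in all libraries. The gene listed as Gm15051 (Hotairm1 in RefSeq) had 0.641, 7.07, 2.98 and 4.42 FPKM in pericytes and 12.7, 10.3, 14.9 and 21.7 FPKM in SMCs (log2 difference -1.90, limma q = 0.0297). Its call was lost without pericyte replicate 3 or SMC replicates 1, 3 or 4 (limma q 0.0598 to 0.0774). Hoxa11as, antisense to Hoxa11, had 0.903, 0.172, 0.492 and 0.475 FPKM in pericytes and 3.35, 2.74, 10.3 and 2.10 FPKM in SMCs (log2 difference -1.71, limma q = 0.0213). It was highest in SMC replicate 3, and the call was lost without pericyte replicate 3 (limma q = 0.0534) or 4 (limma q = 0.0508). In the D cluster, 1700109F18Rik (Hoxd3os1 in RefSeq) had 0.297 to 4.01 FPKM in pericytes and 6.83 to 12.9 FPKM in SMCs (log2 difference -1.99, limma q = 0.0135). The other 2 called were Gm15050 (limma q = 0.0348) and 2700086A05Rik, which is Hoxaas3 in RefSeq (limma q = 0.0179). Without single libraries Gm15050 lost its call in 5 fits (pericyte replicates 2 and 3, SMC replicates 1, 3 and 4; limma q 0.0532 to 0.0865) and 2700086A05Rik in 1 (pericyte replicate 3, limma q = 0.0501). Of 23 protein-coding genes tested among the nearest flanking genes, 4 were higher in SMCs and 2 in pericytes, with a median of 0.02, against 11.2% and 10.6% of all genes.

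Exons of 9 Hox genes overlap a gene on the opposite strand, including 38.6% of the exon bases of Hoxa11 (with Hoxa11as) and 20.4% of those of Hoxa7 (with 2700086A05Rik), and exons of 13 rows overlap a gene on the same strand. The counting is not stated to use strand, so reads from such partners cannot be told apart.

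Among 9 TALE cofactors, 3 were higher in SMCs and 2 in pericytes (median log2 difference -0.64), against 11.2% and 10.6% of all genes. Pknox2 had 1.07, 0.902, 1.28 and 1.75 FPKM in pericytes and 3.18, 3.84, 7.30 and 7.39 FPKM in SMCs, without overlap (log2 difference -1.46, SE 0.26, limma q = 0.00706). Pbx3, a Pbx partner of Hox proteins, was also higher in SMCs (0.649 to 1.13 FPKM against 1.60 to 2.36 FPKM, log2 difference -0.64, SE 0.13, limma q = 0.0105). The Pbx3 call was lost with an intensity trend (limma q = 0.0635) and without both replicate 3 libraries (limma q = 0.0663). Pbx4 (log2 difference 1.46, limma q = 0.0256) and Pknox1 (log2 difference 0.97, limma q = 0.0143) were higher in pericytes. Pbx4 lost its call without SMC replicates 2, 3 or 4 (limma q 0.0542 to 0.0684). Pknox1 lost its call when libraries were rescaled to a common sum (limma q = 0.184). Meis1 (limma q = 0.0672) and Meis2 (limma q = 0.0968) were higher in all SMC libraries than in any pericyte library without passing.

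Retinoic acid sets the anterior limits of Hox expression in the embryo, together with Cdx factors. Of these 9 genes, 4 were higher in SMCs and 0 in pericytes (median log2 difference -0.74), against 11.2% and 10.6% of all genes. Aldh1a2, which makes retinoic acid, had 1.07, 0.391, 0.377 and 2.40 FPKM in pericytes and 8.52, 7.33, 3.11 and 5.86 FPKM in SMCs (log2 difference -1.84, SE 0.37, limma q = 0.0116). The receptor genes Rarb (log2 difference -1.76, SE 0.22, limma q = 0.00140) and Rarg (log2 difference -1.37, SE 0.31, limma q = 0.0180) were higher in SMCs, as was Cyp26a1, which degrades retinoic acid (log2 difference -0.81, limma q = 0.0255). The Rarg call was lost without pericyte replicate 3 (limma q = 0.0505) or SMC replicate 4 (limma q = 0.0502), and that of Cyp26a1 was lost without pericyte replicate 1 or SMC replicates 1, 3 or 4 (limma q 0.0509 to 0.0689). Cdx1, Cdx2 and Cdx4 were at most at 0.194 FPKM in any library.

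Polycomb group genes, whose proteins keep Hox genes silent, had 7 of 15 members higher in pericytes and 0 higher in SMCs, against 10.6% and 11.2% of all genes, with a median log2 difference of 0.74. The other 8 were not called. Ezh2, the methyltransferase for lysine 27 of histone H3, had 17.4, 13.4, 21.3 and 16.7 FPKM in pericytes and 8.85, 9.57, 5.47 and 4.87 FPKM in SMCs (log2 difference 1.18, SE 0.23, limma q = 0.0101). Its partner Suz12 (log2 difference 1.17, limma q = 0.00988) and Mtf2 (log2 difference 1.12, limma q = 0.00494) were also higher. Eed, Rnf2 and Phc2 were called too, Phc2 (limma q = 0.0447) with its call lost in 15 of 18 alternatives. Trithorax group genes and H3K27 demethylases, which oppose silencing, were listed together with Ctcf. Of these 9 genes, 3 were higher in pericytes, against 10.6% of all genes, and 0 in SMCs (median log2 difference 0.52). They were Wdr5 (limma q = 0.00251), Ctcf, an insulator protein (log2 difference 1.14, limma q = 0.00288), and Kmt2a, listed as Mll1 (limma q = 0.0495), whose call was lost in 16 of 18 alternatives. When libraries were rescaled to a common sum, 1 Polycomb gene, Suz12, was called, and from the trithorax list only Ctcf was. Ezh2 (limma q = 0.0841), Mtf2 (limma q = 0.0748), Eed (limma q = 0.0666), Rnf2 (limma q = 0.146), Phc2 (limma q = 0.0586), Wdr5 (limma q = 0.0738) and Kmt2a (listed as Mll1, limma q = 0.314) were not. Without both replicate 3 libraries, 3 Polycomb genes were called. The lymphocyte markers given above were higher in the same pericyte libraries, and their part in the Polycomb and trithorax differences was not tested.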

How the data were processed

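RNA from 4 pericyte and 4 SMC samples was measured, with groups taken from the sample titles. The authors used Bowtie2 and TopHat for alignment (mouse, NCBI Build 37) and deposited per-gene FPKM, not log transformed; the program that computed FPKM, and whether it used strand, are not given in the sources used here. No column of another sample was present. Positions came from GENCODE vM1, which holds 37195 of 37979 gene identifiers and all 40 Hox rows. Current names came from RefSeq (GRCm38.p6).

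Limma 3.58.1 (lmFit, eBayes; R 4.3.3) was run on log2(FPKM + 1) of the 27414 genes not listed at 0 throughout, and single values with two-sided exact permutation tests over 70 assignments (Python 3.11.15, numpy 2.4.6, pandas 2.3.3, matplotlib 3.10.9). Low FPKM values fell in steps of 1 fragment once transcript length was reduced by 240 to 270 bases, and 98.5 to 99.2% of values between 0.5 and 3.5 fragments lay within 0.1 of a whole number. Fragments given for Hox genes with a single transcript are estimates from these steps, and no count test was run. On simulated data of 27411 genes for this comparison, limma recovered 17.9% of genes changed by 1 log2 unit, 67.2% by 2 and 92.4% by 4, with 8 false calls. The changed genes were drawn from those with a mean log2(FPKM + 1) above 1. Most Hox genes lie below that mean, so these rates do not describe them.

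Hox genes whose mean reached 1 FPKM in a group are described by library, the others by range. From each other list, up to 4 called genes with the largest difference are named, with Pitx1, Tbx4 and Tbx5; Isl1, the remaining called genes and some genes not called were named after their values were seen. A few genes that the lists hold are counted but not reported here. The members and lists were chosen with earlier results of these data known. Alternatives were a pseudocount of 0.1, 2 other filters, scaling by quantiles, to TPM or by median ratios, the replicate block, a covariate for replicates 1 and 2 against 3 and 4, an intensity trend and each library left out. Leaving out both replicate 3 libraries, and the 2 ratios with their alternatives, were added after seeing the data.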

Additional observations from a re-analysis of the deposited data

Results flagged for a closer look

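In 15 of the 138 groups of 4 libraries examined (Hox genes and the genes named from other lists), 1 library lay apart from the other 3. The criterion was Dixon's at the 95% level, where chance gives about 1 in 20. That rate does not hold for Hoxa2, Hoxb1, Hoxb13, Hoxd1, Hoxd4 and Hoxd12 in pericytes. The other 3 libraries were listed at 0 there, so any value above 0 passed. The count of 15 therefore does not measure an excess over chance. SMC replicate 3 accounted for 6 of the 15, pericyte replicate 3 for 3, pericyte replicates 1 and 2 for 2 each, and pericyte replicate 4 and SMC replicate 4 for 1 each. The high values in SMC replicate 3 were those of Hoxb13 (3.81 FPKM), Hoxd12 (1.60 FPKM), Hoxd13 (2.15 FPKM), Isl1 (15.3 FPKM) and Wdr5 (10.6 FPKM), and Pknox1 was low there (8.87 FPKM). In pericyte replicate 3, Hoxb13 (0.531 FPKM), Hoxa11 (0.303 FPKM) and Hoxd12 (0.101 FPKM) were high. Pbx4 was high in pericyte replicate 2 (9.01 FPKM). The other 5 values were those of Hox genes at low levels, with Hoxa2 at 0.0705 FPKM in pericyte replicate 4, Hoxb1 at 0.136 FPKM and Hoxd1 at 0.103 FPKM in pericyte replicate 1, Hoxd4 at 0.0220 FPKM in pericyte replicate 2 and Hoxb4 at 0.213 FPKM in SMC replicate 4.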

How the results depend on the processing

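Hox genes higher in SMCs numbered 16, and 13 to 17 with each library left out, 15 with the replicate block, 18 with a pseudocount of 0.1, 19 as TPM and 20 with the covariate. The share of all genes higher in SMCs was 11.2%, and 8.85 to 12% with each library left out. It was 11.6% with the replicate block, 11.1% with a pseudocount of 0.1, 13.6% as TPM and 14.3% with the covariate. The filter of 1 FPKM in at least 4 libraries left 11 Hox genes to test, of which 10 were called. Under it 22.8% of all genes tested were higher in SMCs. Several of the 11 reached 1 FPKM only in SMC libraries, so the filter itself picked genes higher in SMCs. In all 18 alternatives 0 Hox genes were higher in pericytes. With the replicate block, 13 of the 16 calls were shared, Hoxa9 (limma q = 0.0589), Hoxc4 (0.0786) and Hoxd9 (0.0519) were not called and Hoxa7 and Hoxa11 were; the block gave 6153 calls over all genes against 5977. Same-numbered libraries had correlations of 0.0794, 0.319, 0.437 and 0.474 across 13612 genes, and pericyte replicates 3 and 4 correlated best with their own number and replicates 1 and 2 with SMC replicates 2 and 1. Since 1 pair was below 0.1, the numbers were not taken as pairs. The rule of a log2 difference beyond 2 gave 13 Hox genes with a pseudocount of 0.1 against 1. The Hox median of -0.45 moved to -1.26 with that pseudocount, -1.15 with the filter and -0.64 as TPM. With the filter it covers only the 11 genes kept. All-gene calls were 4832 to 6536 with each library left out and 3689 without both replicate 3 libraries. As TPM, 63.8% of all calls were higher in SMCs (3734 against 2117), where the main fit had 51.2% (3060 against 2917). The Hoxa10 to Hoxa9 ratio gave -1.73 with exact sign-flip p = 0.125 over the replicate block pairs. This is the smallest p that 4 pairs allow, so that test could not pass. With single libraries left out the ratio gave -2.04 to -1.36 (exact permutation p = 0.0571 without an SMC library and 0.0286 without a pericyte library). The Tbx4 difference ranged from -0.29 to 0.011 with single libraries left out and turned without pericyte replicate 3. Of 890 alternatives for 50 named genes, 754 kept the direction and side of the threshold, 114 lost the call, 21 gained it and 1 reversed. Causes were not tested. Depth limits the values of few fragments: in the Hox genes with a single transcript, 35 values above 0 lay under 10 estimated fragments. Further values of these genes were listed at 0 and are not among the 35.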
